A study of Homo sapiens with 18 samples.

Results

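The genes described here are YAP target genes, CCN family genes and the regulators that connect them: CCN1, CCN2, CCN3, ANKRD1, AMOTL2, LATS2, YAP1, WWTR1 and TEAD1. They were taken by symbol from the deposited expression table, and all 9 were found among its 36576 genes. The table holds FPKM (fragments mapped, scaled to transcript length and library size) for 9 input RNA libraries from cells that the labels call A549, an established line from a human lung tumour. The groups were cells exposed to 10 mg/L BPQD for 24 h, cells exposed to 100 mg/L TiO2 for 24 h, and untreated cells, with 3 input libraries each. A second set of 3 libraries per group was immunoprecipitated for m6A, methylated adenosine in RNA, and enters only through the authors' tables of differential peaks. The doses of the materials differ, so a contrast of BPQD with TiO2 sets these exposures against each other and not the materials at a matched dose. Nothing in the labels ties the replicates to separate cultures; the p-values therefore reflect only library-to-library spread, which may be technical.

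The Hippo pathway is a kinase cascade in which STK3 and STK4 activate LATS1 and LATS2. The LATS kinases phosphorylate the co-activators YAP1 and TAZ, the product of WWTR1, and hold them in the cytoplasm. Unphosphorylated YAP1 and TAZ enter the nucleus and act through the DNA-binding TEAD proteins, and CCN1, CCN2, ANKRD1, AMOTL2 and LATS2 are widely used readouts of that activity. CCN proteins are secreted matricellular factors that bind integrins and growth factors. CCN2 is in addition a classical target of TGF-beta, and in epithelial cells YAP1 activity follows cell density, attachment and tension. Phosphorylation and location of YAP1 were not measured here, so the values concern transcripts only.

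TEAD proteins recognise DNA around the letters GGAATG. The 300 bases from 250 before to 50 after the transcription start, from RefSeq on GRCh38.p14, are shown for 4 genes whose levels changed with an exposure. They show how many times the motif stands in the starts of a pair of classical target genes and of a pair of pathway genes. Capitals mark GGAATG, and all sequences run 5′ to 3′ on the gene's own strand.
CCN2, chr6:131951323-131951622, minus strand: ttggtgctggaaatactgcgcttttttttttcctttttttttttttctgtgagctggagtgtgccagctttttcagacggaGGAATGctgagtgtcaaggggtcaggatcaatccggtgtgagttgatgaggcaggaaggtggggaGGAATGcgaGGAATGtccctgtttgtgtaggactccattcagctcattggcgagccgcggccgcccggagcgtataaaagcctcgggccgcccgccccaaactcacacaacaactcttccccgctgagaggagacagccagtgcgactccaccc
ANKRD1, chr10:90921038-90921337, minus strand: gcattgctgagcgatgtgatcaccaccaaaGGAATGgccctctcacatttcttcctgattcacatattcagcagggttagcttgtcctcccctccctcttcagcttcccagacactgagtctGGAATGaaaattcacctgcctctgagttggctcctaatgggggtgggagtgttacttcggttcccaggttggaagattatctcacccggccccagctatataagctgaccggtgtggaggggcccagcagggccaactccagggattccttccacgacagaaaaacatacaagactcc
YAP1, chr11:102110197-102110496, plus strand: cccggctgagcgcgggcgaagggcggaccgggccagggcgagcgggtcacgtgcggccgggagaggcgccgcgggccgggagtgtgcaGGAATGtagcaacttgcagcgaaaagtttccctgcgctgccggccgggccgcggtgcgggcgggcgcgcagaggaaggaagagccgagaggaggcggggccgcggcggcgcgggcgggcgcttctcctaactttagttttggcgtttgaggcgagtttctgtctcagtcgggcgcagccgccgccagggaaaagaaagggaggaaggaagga
LATS2, chr13:21061537-21061836, minus strand: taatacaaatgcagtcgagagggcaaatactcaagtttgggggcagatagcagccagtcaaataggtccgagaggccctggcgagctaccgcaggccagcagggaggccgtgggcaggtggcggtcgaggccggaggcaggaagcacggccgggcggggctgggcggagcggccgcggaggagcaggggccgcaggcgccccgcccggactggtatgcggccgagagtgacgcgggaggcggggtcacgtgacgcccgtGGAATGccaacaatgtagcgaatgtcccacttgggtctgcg
The CCN2 window held GGAATG 3 times, beginning 169, 104 and 95 bases before the start. ANKRD1 held it at 220 and 128 bases before the start, YAP1 once at 162 bases before it, and LATS2 once just after the start, inside the transcript. The motif was sought on both strands, and no 2 of these matches overlapped. AMOTL2 has 2 windows in the table, of which 1 held the reverse form, 69 bases before the start, and neither of the 2 windows of WWTR1 held the letters. Over the 6 members with an entry, 5 of 8 windows held a match, while 14% of all 35116 windows of the same length did. A match is only a description of the letters and says nothing about occupancy by a TEAD protein.

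The members past the test were not the same under TiO2 and BPQD. Of all 12224 genes tested, 4614 passed for TiO2 and 5384 for BPQD, each against untreated cells. How many of all genes passed for a single exposure was not counted. The difference is therefore not shown to be particular to the members. Under TiO2 the CCN1 level was 1.62 times and the CCN3 level 2.86 times that of untreated cells, and ANKRD1, a low transcript, stood at 3.59 times. Under BPQD these 3 genes stood near the untreated level, and CCN2 and YAP1 fell while LATS2 rose. Expression was fitted with limma on log2(FPKM + 1). A filter kept 12224 genes whose average reached 1 FPKM, and 8 of the 9 members passed it. ANKRD1, with a mean of 0.954 FPKM, did not, and its fitted values come from the same fit without a filter, over 36576 genes. All fold changes below are on the log2(FPKM + 1) scale, which understates changes of low genes, with their standard errors and Benjamini-Hochberg adjusted p over all genes of the fit.

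**Figure D1:**
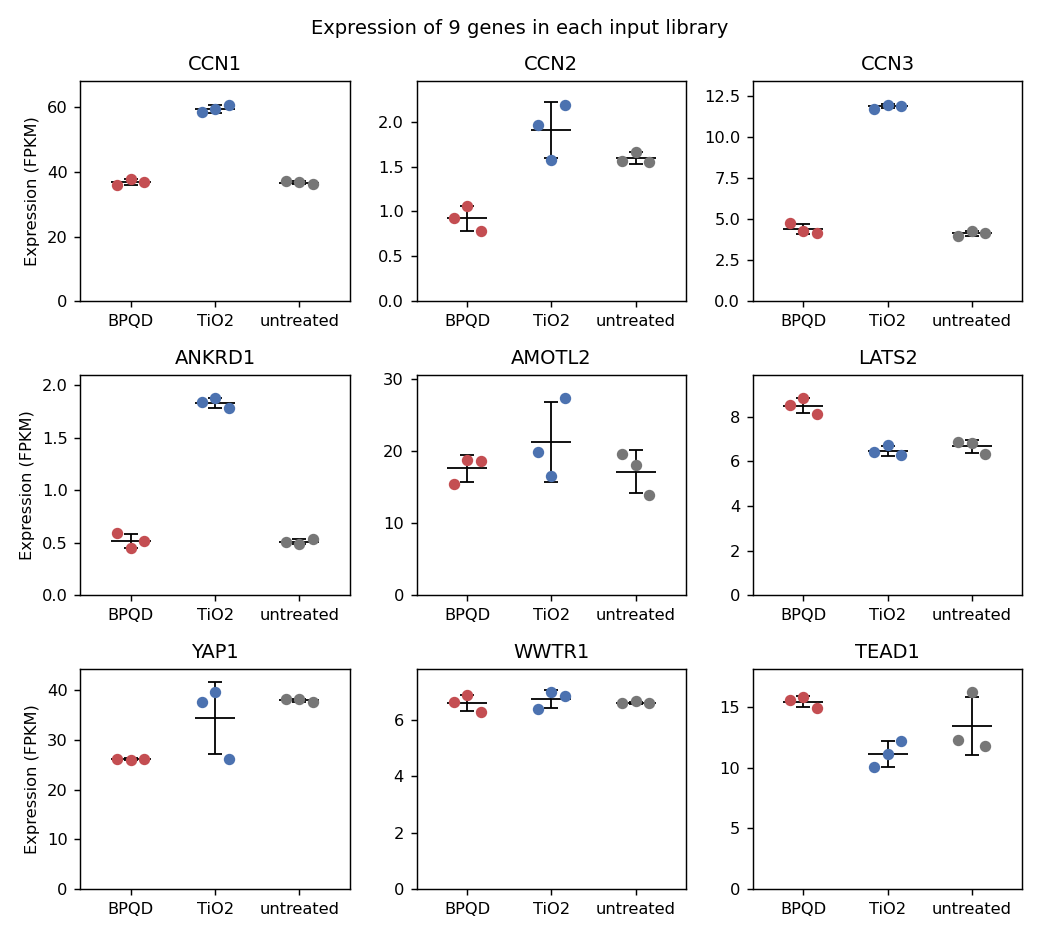
Expression (FPKM) of the 9 genes in every input library under BPQD, under TiO2 and in untreated cells; points are libraries in replicate order, and the dash and bars give the mean ± SD of 3. CCN1, CCN3 and ANKRD1 stood apart under TiO2, CCN2, YAP1 and LATS2 under BPQD, and for YAP1 1 of the 3 TiO2 libraries lay at the BPQD level.

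CCN1 (ENSG00000142871, chr1:85580761-85583950, plus strand), formerly CYR61, encodes a secreted factor in adhesion and wound repair. Its level was 36.0, 38.0 and 37.0 FPKM in BPQD libraries, 58.4, 59.5 and 60.8 FPKM in TiO2 libraries and 37.2, 36.8 and 36.1 FPKM in untreated libraries. The 3 TiO2 libraries lay above all others, and the BPQD and untreated ranges overlapped. The log2 fold change was 0.68 ± 0.03 for TiO2 against untreated (limma adjusted p = 4.53e-06) and 0.01 ± 0.03 for BPQD against untreated (limma adjusted p = 0.785). The 95% interval of the BPQD change ran from -0.05 to 0.07.

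CCN3 (ENSG00000136999, chr8:119416446-119424434, plus strand), formerly NOV, encodes a CCN protein known in other systems to oppose CCN2. Its level was 4.75, 4.27 and 4.16 FPKM under BPQD, 11.7, 12.0 and 11.9 FPKM under TiO2 and 3.99, 4.29 and 4.14 FPKM without treatment. Every TiO2 library stood above all others, while BPQD and untreated libraries overlapped. The log2 fold change was 1.32 ± 0.05 for TiO2 against untreated (limma adjusted p = 2.61e-06) and 0.07 ± 0.05 for BPQD against untreated (limma adjusted p = 0.260).

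CCN2 (ENSG00000118523, chr6:131948176-131951372, minus strand), formerly CTGF, encodes the fibrosis-linked member of the family. It was a low transcript, at 0.933, 1.06 and 0.778 FPKM in BPQD libraries, 1.97, 1.57 and 2.19 FPKM in TiO2 libraries and 1.56, 1.67 and 1.55 FPKM in untreated libraries. The BPQD libraries lay below all others, and the TiO2 and untreated ranges overlapped. The log2 fold change was -0.43 ± 0.09 for BPQD (limma adjusted p = 0.00514), and the ratio of mean FPKM was 0.579. For TiO2 it was 0.16 ± 0.09 (limma adjusted p = 0.189), which became 0.25 (limma adjusted p = 0.0438) without TiO2 replicate 2.

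ANKRD1 (ENSG00000148677, chr10:90912096-90921276, minus strand) encodes a nuclear ankyrin-repeat protein. Its level was 0.588, 0.451 and 0.511 FPKM under BPQD, 1.84, 1.88 and 1.78 FPKM under TiO2 and 0.509, 0.485 and 0.539 FPKM in untreated cells. The TiO2 libraries were well above the other 6, and BPQD and untreated libraries overlapped. In the fit without a filter the log2 fold change was 0.91 ± 0.05 for TiO2 (limma adjusted p = 8.66e-05) and 0.00 ± 0.05 for BPQD (limma adjusted p = 1). With a pseudocount of 0.1 in place of 1 the TiO2 change was 1.66.

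AMOTL2 (ENSG00000114019, chr3:134355874-134375479, minus strand) encodes an angiomotin-family scaffold that is both a YAP target and an inhibitor of YAP. Its level was 15.4, 18.8 and 18.7 FPKM under BPQD, 19.9, 16.6 and 27.4 FPKM under TiO2 and 19.6, 18.1 and 13.9 FPKM in untreated cells. The 3 groups overlapped, and no change passed the test. The 95% interval was wide, from -0.40 to 0.49 for BPQD and from -0.17 to 0.72 for TiO2 against untreated. Changes within these bounds are not excluded.

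LATS2 (ENSG00000150457, chr13:20973036-21061586, minus strand), the Hippo kinase that is itself a YAP target, stood at 8.54, 8.82 and 8.14 FPKM in BPQD libraries, 6.43, 6.71 and 6.29 FPKM in TiO2 libraries and 6.86, 6.82 and 6.34 FPKM in untreated libraries. All BPQD libraries lay above the other 6, and TiO2 and untreated libraries overlapped. The log2 fold change was 0.31 ± 0.04 for BPQD (limma adjusted p = 0.000841) and -0.04 ± 0.04 for TiO2 (limma adjusted p = 0.541). The target genes of the group therefore did not share a direction under BPQD: CCN2 fell, LATS2 rose, and CCN1 and ANKRD1 did not pass the test.

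YAP1 (ENSG00000137693, chr11:102110447-102233424, plus strand), the co-activator, stood at 26.2, 25.9 and 26.2 FPKM under BPQD, 37.6, 39.6 and 26.2 FPKM under TiO2 and 38.2, 38.1 and 37.6 FPKM in untreated cells. The BPQD libraries lay below the untreated libraries without overlap, while TiO2 replicate 3 stood at the BPQD level and the other 2 TiO2 libraries at the untreated level. The log2 fold change was -0.52 ± 0.13 for BPQD (limma adjusted p = 0.0147) and -0.16 ± 0.13 for TiO2 (limma adjusted p = 0.394). Without TiO2 replicate 3 the TiO2 value was 0.02. Such a lone library was not peculiar to YAP1: 244 of 12224 genes had TiO2 replicate 3 at least 0.4 (log2) from the other 2 while those lay within 0.1 of each other, and the count was 204 to 240 for the other 8 libraries. The start of YAP1 overlaps an antisense transcript, AP001527, by 11 bases at a mean of 1.54 FPKM, and whether counting used strand is not given in the sources used here.

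WWTR1 (ENSG00000018408, chr3:149517235-149736714, minus strand) encodes TAZ, the second co-activator. Its level was 6.65, 6.88 and 6.29 FPKM under BPQD, 6.40, 6.99 and 6.87 FPKM under TiO2 and 6.60, 6.67 and 6.61 FPKM in untreated cells. The groups overlapped. Neither change passed the test, with 95% intervals from -0.10 to 0.09 for BPQD and from -0.07 to 0.12 for TiO2 against untreated, so that the YAP1 fall under BPQD had no counterpart of like size in WWTR1.

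TEAD1 (ENSG00000187079, chr11:12674421-12944737, plus strand) encodes a DNA-binding partner of both co-activators. Its level was 15.6, 15.8 and 15.0 FPKM under BPQD, 10.1, 11.2 and 12.2 FPKM under TiO2 and 12.3, 16.2 and 11.8 FPKM in untreated cells. Untreated replicate 2 lay above all BPQD libraries, and untreated replicate 3 below TiO2 replicate 3, so neither exposure separated from the untreated group. Neither change passed the test, at 0.20 ± 0.11 for BPQD (limma adjusted p = 0.198) and -0.24 ± 0.11 for TiO2 (limma adjusted p = 0.140). Without untreated replicate 2 the BPQD change was 0.33 (limma adjusted p = 0.0121).

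Of the 8 members tested, 1 rose and 2 fell under BPQD, against 20.6% of all 12224 genes higher and 23.4% lower. Under TiO2 2 rose and 0 fell, against 17.3% higher and 20.5% lower, and ANKRD1 was called in the fit without a filter. At an unadjusted limma p under 0.05 the number that fell under TiO2 was also 0. The shares of members called were thus 12.5% higher and 25.0% lower under BPQD, and 25.0% higher and 0.0% lower under TiO2. Many genes of the table were called, and with 8 members a single gene moves a share far. Whether these shares differ from the background was not tested. The median log2 fold change of the 8 members was 0.03 under BPQD and 0.09 under TiO2, beside -0.01 and -0.02 for all tested genes. The BPQD and TiO2 comparisons share the untreated libraries. With each library rescaled to an equal sum (the TPM scale), 58.3% of the genes called for BPQD were higher, in place of 46.9%, and this scale left the number of members called as it was.

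The direct comparison of the exposures gave 2 members higher under BPQD than under TiO2, LATS2 and TEAD1, and 3 lower, CCN1, CCN2 and CCN3. Of all genes 19% were higher and 18.6% lower, and 60.5% of the calls were higher on the TPM scale in place of 50.5%. The log2 fold change of BPQD against TiO2 was -1.25 ± 0.05 for CCN3 (limma adjusted p = 2.53e-06) and -0.67 ± 0.03 for CCN1 (limma adjusted p = 3.42e-06). For CCN2 it was -0.60 ± 0.09 (limma adjusted p = 0.00137). LATS2 was higher by 0.35 ± 0.04 (limma adjusted p = 0.000608). ANKRD1, in the fit without a filter, stood at -0.90 ± 0.05 (limma adjusted p = 5.88e-05).

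For the remaining members the call changed with the libraries used, or no call was made. TEAD1 was higher under BPQD than under TiO2 by 0.44 ± 0.11 (limma adjusted p = 0.0188), without overlap between the groups. With 1 library left out the change stayed between 0.38 and 0.50, but the call was lost without BPQD replicate 1 (0.43, limma adjusted p = 0.0519), without BPQD replicate 2 (0.42, limma adjusted p = 0.0545) and without TiO2 replicate 1 (0.38, limma adjusted p = 0.0617). For YAP1 the change was -0.37 ± 0.13 (limma adjusted p = 0.0649), and without TiO2 replicate 3 it was -0.55 (limma adjusted p = 6.58e-05). AMOTL2 and WWTR1 did not pass the test between the exposures.

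**Figure D2:**
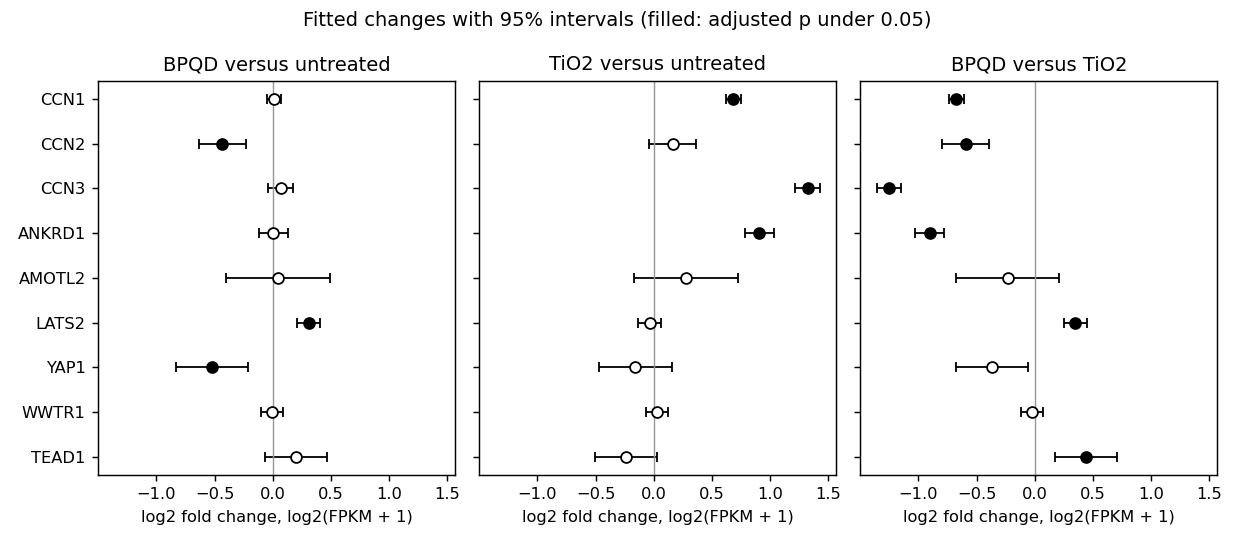
Fitted log2 fold changes on the log2(FPKM + 1) scale for the 9 genes, in 3 comparisons of groups of 3 libraries; bars are 95% intervals, filled points have an adjusted p under 0.05, and ANKRD1 comes from the fit without a filter. CCN1, CCN3 and ANKRD1 moved under TiO2 only among their 2 comparisons with untreated cells, and differed between the exposures.

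By level per kilobase, the order in untreated cells was YAP1 at 38.0 FPKM, CCN1 at 36.7, AMOTL2 at 17.2, TEAD1 at 13.5, LATS2 at 6.67, WWTR1 at 6.63, CCN3 at 4.14, CCN2 at 1.59 and ANKRD1 at 0.511. Ranges of libraries overlapped for the neighbours AMOTL2 and TEAD1 and for LATS2 and WWTR1. Under TiO2 CCN1 led at 59.6 FPKM and CCN3, at 11.8 FPKM, stood beside TEAD1 at 11.2 FPKM with overlapping ranges. CCN2 at 1.91 FPKM and ANKRD1 at 1.83 FPKM also overlapped there. Under BPQD CCN1 led at 37.0 FPKM, ahead of YAP1 at 26.1 FPKM.

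Of the 3 other CCN genes, CCN5 alone passed the filter. This gene, formerly WISP2, was among the more abundant genes of the group, at 38.2, 33.0 and 34.1 FPKM in BPQD libraries, 40.4, 38.0 and 39.8 FPKM in TiO2 libraries and 41.1, 42.1 and 46.8 FPKM in untreated libraries. Both exposed groups lay below the untreated libraries, and BPQD passed the test, with a log2 fold change of -0.30 ± 0.07 (limma adjusted p = 0.00817), while TiO2 did not, at -0.13 ± 0.07 (limma adjusted p = 0.153). CCN4 and CCN6 had means of 0.00153 and 0.0149 FPKM, under the filter. Over the 6 family genes, 4 were tested: under BPQD 0 rose and 2 fell, CCN2 and CCN5, and under TiO2 2 rose, CCN1 and CCN3, and 0 fell. At an unadjusted limma p under 0.05 these counts of 0 were the same. Of all genes 20.6% were higher and 23.4% lower under BPQD, and 17.3% and 20.5% under TiO2.

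A list of 22 YAP/TAZ target genes, named after published signatures and including 5 of the members, went in both directions. Of 20 tested, 6 rose and 5 fell under BPQD, or 30.0% and 25.0%, beside 20.6% and 23.4% of all genes. The median log2 fold change was 0.03 beside -0.01 for all tested genes. The rises were led by GADD45A, a stress-responsive gene, at 0.75, LATS2 at 0.31 and FJX1 at 0.19. The falls were IGFBP3, which binds insulin-like growth factors, at -0.66, CCN2, ARHGEF17 at -0.30, AXL, a receptor tyrosine kinase, at -0.17 and DOCK5, a guanine nucleotide exchange factor, at -0.09. Under TiO2 11 rose and 4 fell, or 55.0% and 20.0%, beside 17.3% and 20.5% of all genes. The median there was 0.17 beside -0.02 for all tested genes. F3, the coagulation initiator tissue factor, rose by 0.84, TGFB2, a TGF-beta ligand, by 0.62, GADD45A by 0.51 and NT5E, an ectonucleotidase, by 0.31, besides CCN1. The falls were PTPN14, a phosphatase that restrains YAP, at -0.41, DOCK5 at -0.34, FOXF2, a transcription factor, at -0.33 and ARHGEF17 at -0.25. Tissue factor stood at 7.77 to 8.23 FPKM under BPQD, 15.7 to 15.96 FPKM under TiO2 and 7.79 to 9.21 FPKM in untreated cells, so that TiO2 libraries lay apart as they did for CCN1. Between the exposures 3 of these targets were higher under BPQD, PTPN14 at 0.48, LATS2 and DOCK5 at 0.25. Another 7 were lower, among them F3 at -0.90, CCN1, IGFBP3 at -0.60, CCN2 and TGFB2 at -0.56. These were 15.0% and 35.0% of the 20 tested, beside 19% and 18.6% of all genes.

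**Figure D3:**
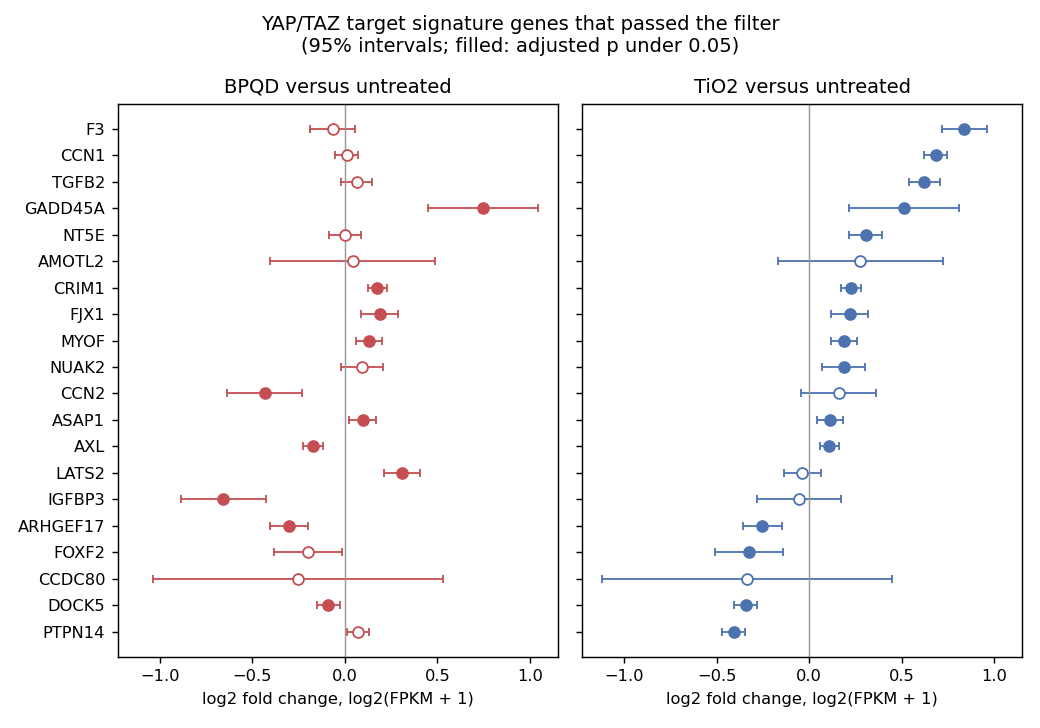
Log2 fold changes on the log2(FPKM + 1) scale of the 20 YAP/TAZ target genes that passed the filter, BPQD against untreated and TiO2 against untreated, sorted by the TiO2 value; bars are 95% intervals and filled points have an adjusted p under 0.05. Changes past the test lay on both sides of zero in either comparison. Under TiO2 11 were higher and 4 lower (55.0% and 20.0%), beside 17.3% and 20.5% of all genes. Under BPQD 6 were higher and 5 lower (30.0% and 25.0%), beside 20.6% and 23.4% of all genes. The comparisons share the untreated libraries.

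In the upstream cascade the shares called under BPQD were near those of all genes. Of 24 Hippo kinases and regulators, 23 were tested. Under BPQD 6 rose and 5 fell, or 26.1% and 21.7%, beside 20.6% and 23.4% of all genes, with a median of 0.05. Besides LATS2 the rises were WWC2 at 0.23, LATS1 and STRN3 at 0.20 each, TAOK1 at 0.12 and SAV1 at 0.11. The falls were FRMD6, an upstream FERM protein, and TAOK2, an upstream kinase, at -0.29 each, AMOTL1, an angiomotin-family scaffold, at -0.27, MOB1A, the LATS co-activator, at -0.13 and TAOK3 at -0.11. On the TPM scale 3 in place of 5 fell. Under TiO2 6 rose and 4 fell, or 26.1% and 17.4%, beside 17.3% and 20.5% of all genes, with a median of 0.01. The rises included STK3, the upstream kinase, at 0.27, STRN3 at 0.25 and WWC1 at 0.21. The falls were AMOTL1 at -0.50, PTPN14, TAOK2 at -0.33 and LIMD1 at -0.13. Without TiO2 replicate 3 the number of rises was 3. Between the exposures 7 were higher under BPQD, among them PTPN14, LATS2 and LATS1 at 0.32. Another 4 were lower, FRMD6 at -0.38, STK3 at -0.31, TAOK3 at -0.18 and MOB1A at -0.09. These were 30.4% and 17.4% of the 23 tested, beside 19% and 18.6% of all genes.

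Among 10 co-activators, TEAD proteins and VGLL co-factors, 8 were tested. Of all genes 20.6% were higher and 23.4% lower under BPQD, and 17.3% and 20.5% under TiO2. Between the exposures 19% of all genes were higher under BPQD and 18.6% lower. Under BPQD YAP1 fell and TEAD2 fell by 0.47, and 0 rose. Under TiO2 TEAD2 fell by 0.33, VGLL3, a co-factor that competes for TEAD proteins, by 0.22 and TEAD4 by 0.14, and 0 rose. The count of rises was 0 in both at an unadjusted limma p under 0.05 as well, and 1 for BPQD, TEAD1, without untreated replicate 2. Between the exposures 3 were higher under BPQD, TEAD1, VGLL3 at 0.31 and TEAD4 at 0.12, and 0 were lower (2 at an unadjusted limma p under 0.05), or 1 when BPQD replicate 3, TiO2 replicate 2 or TiO2 replicate 3 was left out. TEAD4 was the most abundant TEAD gene, with a mean of 27.7 FPKM over the 9 libraries.

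SRF and its MRTF co-activators, which respond to actin, share targets with YAP1 and were listed for that reason. Of 13 tested, 0 rose and 7 fell under BPQD (0 and 8 at an unadjusted limma p under 0.05), among them MYL9, a myosin light chain, at -0.49, ACTG1, cytoplasmic actin, at -0.36, CNN2, a calponin, at -0.33, MRTFA, the co-activator itself, at -0.32 and FLNA, an actin crosslinker, at -0.19. Under TiO2 2 rose, FHL2 at 0.32 and VCL at 0.17, and 4 fell, FLNA at -0.38, MRTFA at -0.34, TPM2, a tropomyosin, at -0.20 and MYL9 at -0.12. The median was -0.17 under BPQD and -0.12 under TiO2, beside -0.01 and -0.02 for all tested genes. Under BPQD the share lower was 53.8% beside 23.4% of all genes, and the share higher 0.0% beside 20.6%. Under TiO2 30.8% were lower and 15.4% higher, beside 20.5% and 17.3% of all genes. Between the exposures FLNA was higher under BPQD at 0.19, and FHL2 at -0.41, MYL9 at -0.37 and VCL at -0.20 were lower. These were 7.7% and 23.1% of the 13 tested, beside 19% and 18.6% of all genes. Of the TGF-beta response, SMAD2, a signal transducer, rose by 0.53 under BPQD, and SMAD7, the inhibitory SMAD, stood at -0.45 and passed the test. The SMAD2 call was lost without BPQD replicate 3, untreated replicate 2 or untreated replicate 3. Under TiO2, besides TGFB2, THBS1, a matricellular activator of TGF-beta, rose by 0.25 and the receptor TGFBR2 by 0.10, and SMAD7 stood at -0.46 and passed the test. Between BPQD and TiO2 the log2 fold change was -0.56 for TGFB2 and -0.29 for THBS1, both past the test. SMAD2 went the other way, at 0.48 (limma adjusted p = 0.0461). In the fit without a filter, which adjusts over more genes, 14 calls of the listed genes were lost, at limma adjusted p of 0.0507 to 0.105. They were those of ACTG1, ASAP1, DOCK5, FHL2, SAV1, SMAD2, STRN3 and TAOK3 for BPQD against untreated, of LIMD1, NUAK2, SAV1 and TGFBR2 for TiO2 against untreated, and of MOB1A and SMAD2 for BPQD against TiO2.

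The authors' deposited tables list differential m6A peaks, regions of enrichment after immunoprecipitation, with their log2 fold change of m6A and p. Peaks named 3′ UTR or 5′ UTR are as annotated by the authors. The BPQD table held 6 peaks of the members in 3 genes, of 14903 in all. For TiO2 there were 12 in 6 genes, of 12891 peaks. CCN3, ANKRD1 and WWTR1 had none, and CCN1, CCN2 and LATS2 had peaks in the TiO2 table only. How many of all genes had peaks for a single exposure was not counted. This difference is therefore not shown to be particular to the members. A missing entry also does not show that m6A was absent or unchanged. At the authors' p under 0.05, 5 of 6 BPQD peaks passed, 3 higher and 2 lower, against 37.7% of all peaks of that table higher and 27.1% lower. For TiO2 7 of 12 passed, 5 higher and 2 lower, against 40.3% higher and 23.8% lower.

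In the authors' deposited table for TiO2, CCN1 had a 3′ UTR peak of 924 bases (chr1:85582759-85583682) with a log2 fold change of 0.196 (p = 6.31e-15) and a 5′ UTR peak of 239 bases at -0.323 (p = 0.0107). This 5′ UTR peak did not pass at p under 0.01, and its FDR was 0.0646. CCN2 had the like arrangement in the authors' deposited table, with a 3′ UTR peak of 630 bases (chr6:131948925-131949554) at 0.681 (p = 3.55e-06). Its 2 overlapping 5′ UTR peaks stood at -0.797 (p = 0.0871) and -0.919 (p = 0.0575) in the authors' deposited table, and neither passed. One of these spans 126216 bases and reaches far upstream of the gene, so its enrichment cannot be assigned to CCN2 alone. The 3′ UTR enrichment was thus listed as higher after TiO2 in both genes, in a table whose 3′ UTR peaks had a median log2 fold change of 0.133. The median of its 5′ UTR peaks was 0.167.

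**Figure D4:**
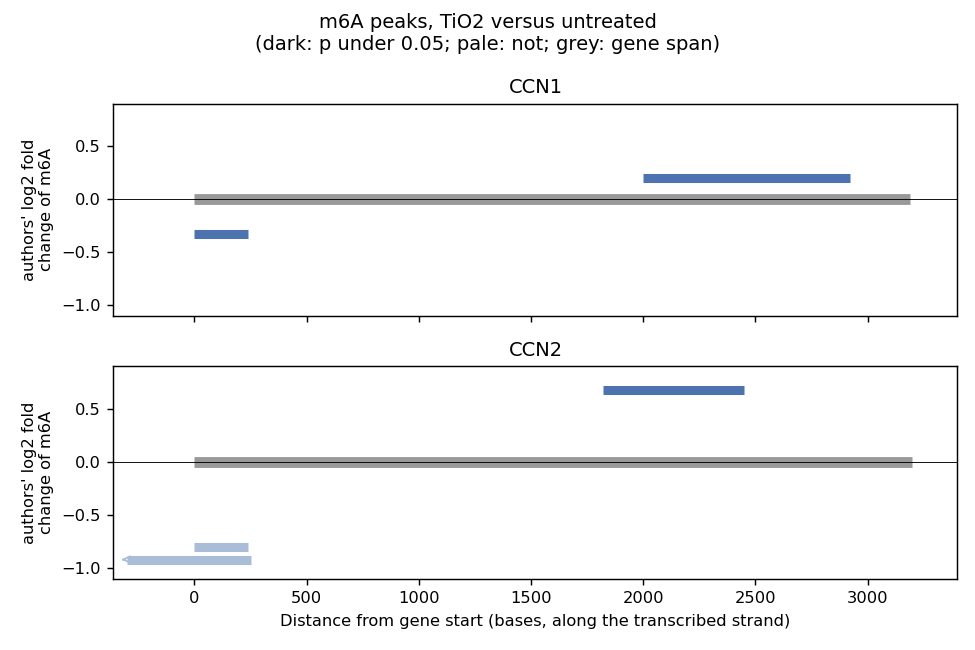
Authors' m6A peaks of CCN1 and CCN2 for TiO2 against untreated, placed by distance in bases from the gene start along the transcribed strand (x axis) and by the authors' log2 fold change (y axis); dark bars have p under 0.05, pale bars do not, and the arrow marks the peak that runs on upstream. The peaks near the gene end lie above zero and those at the gene start below it.

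YAP1 had 2 overlapping 3′ UTR peaks in both tables, a narrow one at chr11:102229851-102230743 and a wider one that starts upstream of it. In the authors' deposited table for BPQD their log2 fold changes were 0.231 (p = 3.02e-06) and 0.125 (p = 2.29e-05). In the authors' deposited table for TiO2 they were 0.105 (p = 0.0182) and 0.0645 (p = 0.0178). Neither TiO2 peak passed at p under 0.01, and both had an FDR of 0.0933. Over all 3′ UTR peaks the median was 0.154 for BPQD and 0.133 for TiO2, so that of the 4 values only the narrow BPQD peak lay above its table's median. Whether the peaks differ between the exposures was not tested.

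TEAD1 had a 3′ UTR peak of 7142 bases at -0.158 (p = 0.000355) in the authors' deposited table for BPQD, and a 3′ UTR peak of 7262 bases at -0.169 (p = 0.000112) in that for TiO2. A narrower peak of 420 bases stood at 0.141 (p = 4.57e-05) in the authors' deposited table for BPQD. The 5′ UTR peak, 89762 bases wide and so crossing introns, was at -0.264 (p = 0.000257) in the authors' deposited table for BPQD. The TiO2 counterpart was at -0.0565 (p = 0.222) in the authors' deposited table. Over all 5′ UTR peaks the median was -0.173 for BPQD and 0.167 for TiO2. LATS2 had a 5′ UTR peak of 87178 bases at 0.119 (p = 0.000692) in the authors' deposited table for TiO2. This peak spans nearly all of the gene's 88551 bases, and its value lay below the TiO2 median of 0.167 for 5′ UTR peaks. The AMOTL2 5′ UTR peaks did not pass in the authors' deposited tables, at 0.352 (p = 0.276) for BPQD and at -0.687 (p = 0.0759) and -1.58 (p = 0.438) for TiO2.

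Of 6 listed epithelial markers 4 were over the filter. KRT18, KRT8 and KRT7 had means of 489, 275 and 254 FPKM, and EPCAM 2.52 FPKM. CDH1 and KRT19 did not pass it, at 0.337 and 0.239 FPKM. The summed level of the 6 was 852 to 872 FPKM under BPQD and 952 to 1047 FPKM under TiO2. In untreated cells it was 1152 to 1239 FPKM. Of 5 lung-lineage genes measured 4 were under 0.1 FPKM, among them NKX2-1 and SFTPB. The 1 that passed was ABCA3, at a mean of 9.65 FPKM. Of 6 genes abundant in A549 cells 2 passed, AKR1C3 at a mean of 3.92 FPKM and ALDH3A1 at 1.92 FPKM. The others were AKR1C1 at 0.827 FPKM, AKR1B10 at 0.600 FPKM, AKR1C2 at 0.0773 FPKM and ALDH1A1 at 0.0412 FPKM. These levels do not settle the identity of the cells, so the label rests on the submitters' word. Of 8 fibroblast markers 4 passed, led by LUM at 19.7 FPKM, and their sum was 13.9 to 24.8 FPKM under BPQD, 27.9 to 37.7 FPKM under TiO2 and 29.3 to 29.8 FPKM in untreated cells, with PDGFRA and COL1A2 near 0. CD68, the only 1 of 5 leukocyte markers over the filter, carried a sum of 11.7 to 12.8 FPKM under BPQD, 17.6 to 23.1 FPKM under TiO2 and 11.2 to 13.2 FPKM in untreated cells, and PTPRC was near 0. Of 5 endothelial markers 1 passed, with sums of 1.22 to 1.36 FPKM under BPQD, 2.15 to 3.94 FPKM under TiO2 and 3.05 to 3.70 FPKM in untreated cells. The part of these shifts in the results for the members was not tested. All libraries are labelled as the same line, and several of these sums rest on few genes. In bulk RNA, fewer cells of a type cannot be told apart from less of these transcripts, or less RNA, per cell.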

How the data were processed

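Titles in the labels gave each library its group. The expression values are FPKM, made by the authors and deposited for 9 input libraries, per the file headers. HISAT2 and StringTie 1.3.0 are named in the submitters' processing notes without roles, which also list the mouse build mm10. Gene IDs in the files are nevertheless human, and all 9 members lay on the same chromosome as in RefSeq's GRCh38.p14 with at least 97.4% of the RefSeq span overlapped, so the files' coordinates are read as GRCh38. No read counts come with these values, so depth is unknown, no count test was possible and precision rests on 3 libraries per group. In the peak tables the authors give a log2 fold change for the m6A of each peak, a p-value and a log10 FDR treated as a score, as deposited. The peak caller, and any pooling of replicates before calling, is not given in the sources used here. Single-library FPKM values in 12 columns of the peak tables were left out.

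Group means were fitted with limma 3.58.1 (R 4.3.3; trended variance, two-sided, Benjamini-Hochberg) on log2(FPKM + 1) for 12224 genes averaging at least 1 FPKM across the 9 libraries, which share 1 estimate of the spread. Genes were called at an adjusted p under 0.05. The fit was tested on simulated data. Tables and figures were made with Python 3.11.15, pandas 2.3.3, numpy 2.4.6 and matplotlib 3.10.9. The members and the lists were chosen with earlier results of these data known. All members are named, with the list genes past the test that changed most, up to 5 per list and comparison, and any gene that a count of 5 or fewer covers. A gene of the TGF-beta list that meets this rule, and the counts over that list, are not reported here. Alternatives were another pseudocount, no filter, 3 rescalings, no trend, a replicate block, only the compared libraries, each library left out, and stricter peak thresholds.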

Additional observations from a re-analysis of the deposited data

How the results depend on the processing

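Over 456 alternative values for single members, 434 kept their direction and their side of the threshold, 3 passed it newly, 3 no longer passed and 16 turned sign. The 6 changes of call were those of CCN2, YAP1 and TEAD1 given above, and none of the sign changes concerned a value past the test. Under BPQD against untreated, ANKRD1 turned to -0.0311 with median centring and -0.0269 with quantile normalization, and WWTR1 to 0.0497 on the TPM scale, 0.0184 with median centring and 0.0200 with quantile normalization. Against TiO2, WWTR1 under BPQD was 0.00741 on the TPM scale. With 1 library left out, the BPQD change against untreated ranged from -0.0081 to 0.0289 for CCN1, -0.0291 to 0.0361 for ANKRD1, -0.0950 to 0.141 for AMOTL2 and -0.0302 to 0.0256 for WWTR1. The change for TiO2 against untreated ranged from -0.266 to 0.0228 for YAP1, and for BPQD against TiO2 from -0.0612 to 0.00188 for WWTR1. The causes were not tested. The number of members called ranged from 3 to 4 for BPQD, 2 to 3 for TiO2 and 4 to 6 for BPQD against TiO2 over the alternatives. At the authors' p under 0.01, or an FDR under 0.05, 4 member peaks passed for TiO2 in place of 7, while 5 still passed for BPQD. Deviations of libraries with the same replicate number correlated at -0.0830 to 0.0733. Pairs with different numbers spanned -0.0788 to 0.0842, so no shift shared by number was seen. Whether the libraries were paired is not in the labels. With a replicate block 3, 2 and 5 members were called, as without it. The genes called were 4996, 4160 and 4150 in place of 5384, 4614 and 4596. Depth is unknown, so whether CCN2 and ANKRD1 are limited by it cannot be said.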

Other observations

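The genes whose log2(FPKM + 1) followed CCN1, CCN2 and CCN3 most closely over the 9 input libraries are given as a description. For CCN1 these were GPNMB, a lysosome-linked glycoprotein (Pearson r 0.997), ALDH1B1 (r 0.997) and OSMR, the oncostatin M receptor (r 0.997). GPNMB averaged 1.51 FPKM under BPQD, 7.63 FPKM under TiO2 and 1.35 FPKM in untreated cells. For CCN3 they were CREG2 (r 0.998), SQSTM1, the autophagy receptor p62 (r 0.996), and LACTB (r 0.995), and SQSTM1 averaged 59.0 FPKM under BPQD, 87.7 FPKM under TiO2 and 57.9 FPKM in untreated cells. For CCN2 they were DNAJC12 (r 0.981), SEMA7A (r 0.980) and PMEPA1, a TGF-beta-induced inhibitor of TGF-beta signalling (r 0.974). PMEPA1 averaged 2.48 FPKM under BPQD, 3.69 FPKM under TiO2 and 3.30 FPKM in untreated cells. The libraries fall into 3 groups of 3, so these values mostly show how the groups are ordered.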
